A study of Rattus norvegicus with 8 samples.

Results

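Cholecystokinin (Cck) and its receptors Cckar and Cckbr were examined in the enamel organs of the rat incisor. The 3 genes were found in the array table by their symbols, ignoring case, and each was read by 1 probe, so that they made up 3 of 21547 genes on the array. Cck was chosen by its difference in signal between the stages on these same arrays, and the receptors were added because they bind its peptide. The stage values of the 3 genes are therefore given as a description, without a test.

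The study profiled RNA of 4 male Wistar Hannover rats aged 4 weeks with RatRef-12 v1 BeadChips, Illumina arrays on which many beads carry the same probe. From each rat, the cell layer over the enamel of the mandibular incisor was divided at a reference line into 1 enamel organ sample of each stage. This gave 4 arrays per stage (secretory 1 to 4 and maturation 1 to 4, numbered by replicate, which was taken as the rat). No animal was treated or genetically altered, and the comparison asked which transcripts change as ameloblasts, the enamel-forming cells, pass from laying down the enamel matrix to hardening it. The samples were dissected layers rather than sorted ameloblasts, so fewer cells of a type and less RNA per cell cannot be told apart.

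Cholecystokinin is made as a precursor protein, which prohormone convertases and carboxypeptidases cut and which is sulfated on tyrosine and amidated before the short peptide is released from secretory granules. It is best known as a hormone of the small intestine that drives gallbladder contraction and pancreatic secretion, and as an abundant peptide of brain neurons. Its receptors, Cckar in the gut and pancreas and Cckbr in brain and stomach, are coupled mainly to Gq proteins, which activate phospholipase C and release calcium from internal stores.

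The probe for Cck (ILMN_1365636, placed on chromosome 8 by the annotation of the array, whose genome build is not stated) gave bright signals in the maturation stage and signals near the background in the secretory stage. The deposited mean bead signals were 1300, 4880, 3429 and 3590 intensity units in maturation 1 to 4, with a detection p-value of 0 on each. In secretory 1 to 4 they were 112.0, 111.8, 124.7 and 118.0. All 4 maturation-stage arrays lay above all 4 secretory-stage arrays. This also held for the normalized values given below, on which 13.4% of all genes showed such non-overlap with the maturation stage above. The share on deposited signals was not counted.

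The detection p-value compares a probe with the negative-control beads of the same array, and a probe was taken as detected below 0.05. For Cck it was 0.0933 in secretory 1, 0.124 in secretory 2, 0.0133 in secretory 3 and 0.0424 in secretory 4. Cck was thus detected on 2 of 4 secretory-stage arrays, and there only just. In secretory 4 its signal of 118.0 stood beside 117.2 for the dimmest detected probe of that array, and in secretory 3 its 124.7 stood beside 116.9.

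The number of beads behind the Cck signal lay between 34 and 55 per array. In the maturation stage the standard error over the beads was 2.68% to 3.30% of the signal. It was 42.9 units in maturation 1 and 152 in maturation 2, and it covers the reading of 1 sample, not the spread between rats.

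**Figure D1:**
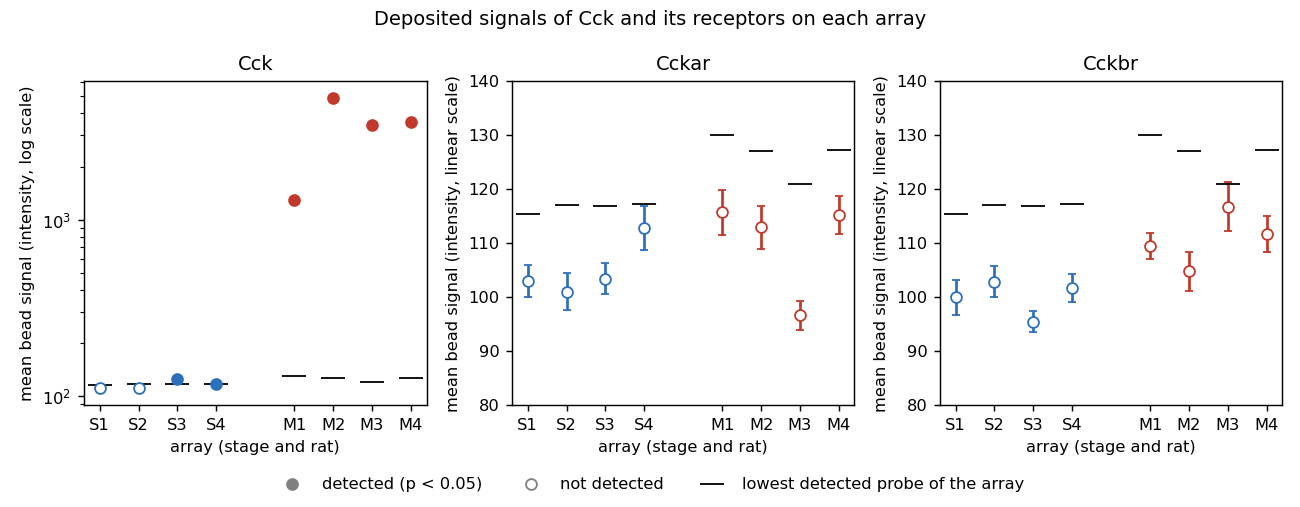
Deposited mean bead signal (intensity) of Cck on a log axis and of Cckar and Cckbr on linear axes that start at 80, for secretory arrays S1 to S4 and maturation arrays M1 to M4. Filled points were detected and open points were not, vertical bars are the bead standard error (smaller than the points for Cck), and the short black lines mark the dimmest detected probe of each array. Cck lies at 111.8 to 124.7 in the secretory stage and at 1300 to 4880 in the maturation stage, while every point of both receptors lies below its black line.

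Over the 4 maturation-stage arrays the deposited Cck signal averaged 3300 ± 1483 (SD), and over the 4 secretory-stage arrays 117 ± 6.10 (SD), a ratio of 28.3. After background correction and normalization, its log2 signal was 9.85, 12.03, 11.68 and 11.52 in maturation 1 to 4 and 4.91, 4.82, 5.36 and 5.09 in secretory 1 to 4. The means were 11.27 ± 0.970 and 5.04 ± 0.239 (SD, n = 4), a difference of 6.23 on the log2 scale or 75.0-fold. The deposited signals still contain the array background, which the normalized values do not, and with a secretory-stage signal so near the background the size of the fold depends on how that background is treated.

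Within each rat the maturation-stage sample was the higher one. The difference in normalized log2 signal was 6.33 in rat 3 and 6.43 in rat 4, whose secretory-stage samples were detected. In rats 1 and 2 the secretory-stage sample was undetected, and counted from the dimmest detected probe of that array the difference was at least 4.79 in rat 1 and at least 6.99 in rat 2 (4.95 and 7.21 with the measured values). Without maturation 1 the fold between the stage means was 104. With no background correction the log2 difference between the stage means was 4.39, and with an offset of 50 it was 5.23.

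Cckar encodes the receptor that prefers the sulfated peptide. Its probe (ILMN_1350836, chromosome 14) gave signals of 115.7, 113.0, 96.7 and 115.2 in maturation 1 to 4 and of 103.0, 101.0, 103.4 and 112.8 in secretory 1 to 4. The stages overlapped, and the detection p-values lay between 0.114 and 0.925, so the probe was undetected on all 8 arrays. The normalized log2 signals averaged 4.54 ± 0.116 and 4.62 ± 0.161 (SD, n = 4), a difference of -0.08 that is smaller than either SD.

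Cckbr encodes the receptor that also binds gastrin. Its probe (ILMN_1351032, chromosome 1) gave signals of 109.5, 104.8, 116.8 and 111.7 in maturation 1 to 4 and of 99.99, 102.9, 95.5 and 101.7 in secretory 1 to 4. All 4 maturation-stage signals were above the secretory-stage signals before normalization, but after it the stages overlapped. Deposited signals were larger overall on the maturation-stage arrays. The dimmest detected probe gave 121.0 to 130.1 there and 115.4 to 117.2 on the secretory-stage arrays. The detection p-values of Cckbr lay between 0.0861 and 0.896, and its probe was undetected on all 8 arrays. The normalized log2 signals averaged 4.57 ± 0.168 and 4.48 ± 0.0669 (SD, n = 4), a difference of 0.09.

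No fold is given for either receptor, since both stages were below detection. This was common on these arrays: 39.2% of genes were detected on no array. An undetected probe does not show that a transcript is missing. The probe for Gnas, a G protein subunit that nearly all cells express, was chosen after its values were seen as an example, and it too was undetected on all 8 arrays, with signals between 101.7 and 117.5.

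The stage labels were checked with genes of ameloblasts. Klk4, an enamel protease of the maturation stage, had normalized log2 signals of 13.23, 13.45, 13.12 and 13.43 in maturation 1 to 4 and of 5.14, 5.74, 5.61 and 6.47 in secretory 1 to 4. Enam, an enamel matrix protein, had 11.98, 12.03, 11.94 and 11.99 in secretory 1 to 4 and 9.08, 5.17, 5.53 and 8.22 in maturation 1 to 4. Amelx, the main matrix protein of enamel, was bright in both stages and differed by -0.53 (limma, adjusted p = 0.0555). Genes were called at an adjusted p below 0.05 (limma, Benjamini-Hochberg over all 22523 probes) and a fold change of at least 1.8, each gene by its most changed probe, and across all 21547 genes 4.71% were called higher and 3.26% lower in the maturation stage. Of the markers with a probe, 4 of 4 maturation ameloblast genes were called higher in the maturation stage and 2 of 4 secretory ameloblast genes were called lower.

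Maturation 1, the sample with the lowest Cck of its stage, was also the one with the highest Enam and the highest summed signal of secretory ameloblast genes, 57385 intensity units, against 32320, 37583 and 46162 in maturation 2, 3 and 4 and 58408 to 62760 in the secretory stage. Maturation 4, however, had the second highest Enam of its stage and a Cck signal like those of maturation 2 and 3. The sums are of deposited signals, whose total was largest in maturation 1 (16122665). For maturation ameloblast genes maturation 1 had a sum of 22408, against 23116, 18548 and 24488 in maturation 2, 3 and 4. The log2 signal of Cck in maturation 1 minus the median of the other maturation-stage samples was -1.83. Among the 1014 genes called higher in the maturation stage, maturation 1 was the lowest of its stage in 483 (47.6%), with a median shift of -0.127, and among the 703 called lower it was the highest in 334 (47.5%), with a median shift of 0.111. Over all genes it was the lowest in 29% and the highest in 26.5%. Of the 1014 genes, 1 other was as far below in maturation 1, Niban2, at 6.56 against 9.79, 8.65 and 7.82. Whether the position of the dissection bears on the low Cck of maturation 1 was not tested.

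Since Cck is a neuropeptide elsewhere, markers of neurons and neuroendocrine cells were examined beside it. Of 11 such genes with a probe, 0 were called higher and 2 were called lower in the maturation stage, where a list this short would hold few calls at the shares over all genes of 4.71% and 3.26% (Tubb3, a neuronal tubulin, by a log2 change of -2.58, and Uchl1, a neuronal ubiquitin hydrolase, by -1.12). Their summed signal was 1413 to 1624 in the maturation stage and 1615 to 1729 in the secretory stage, and 6 of the 11 were undetected on all arrays, among them Chga, Syp and Neurod1. At an unadjusted p below 0.05 limma also had 0 of these genes higher, and the test of the methods called 0. Genes that process and release peptides were kept in other lists, given below. There Pcsk1, Scg3 and Snap25 were called higher, and Cadps2 and Rab27a lower.

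Markers of some other cell types were also examined, as sums of deposited signals, which were larger overall on the maturation-stage arrays (13355073 to 16122665 against 11881691 to 12046793 per array), and as normalized changes. The summed signal of 7 macrophage and leukocyte genes was 10871 to 12548 in the maturation stage and 3327 to 4040 in the secretory stage, with 4 of 7 called higher and a median log2 change of 0.918. That of 6 Schwann cell genes was 5606 to 8331 against 2739 to 3563, with 2 of 6 called higher and a median of 0.703. That of 4 endothelial genes was 6278 to 6749 against 3574 to 4534, but 1 of 4 was called higher, Vwf, and the median change was 0.0404. The part of these cells in the Cck signal was not tested. Over all genes 4.71% were called higher and 3.26% lower, and among genes detected on at least 4 arrays 9.25% and 6.38%. The sums of the odontoblast and osteoblast genes (11151 to 13121 against 4329 to 18422), of the skeletal muscle genes (718 to 1535 against 594 to 872) and of the erythroid genes (22516 to 24367 against 13910 to 26212) overlapped between the stages. Of the 6 odontoblast and osteoblast genes, however, Dspp was called lower (-5.45, undetected in the maturation stage) and Ibsp higher (1.95), while 4 were not called. None of the skeletal muscle or erythroid genes was called.

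**Figure D2:**
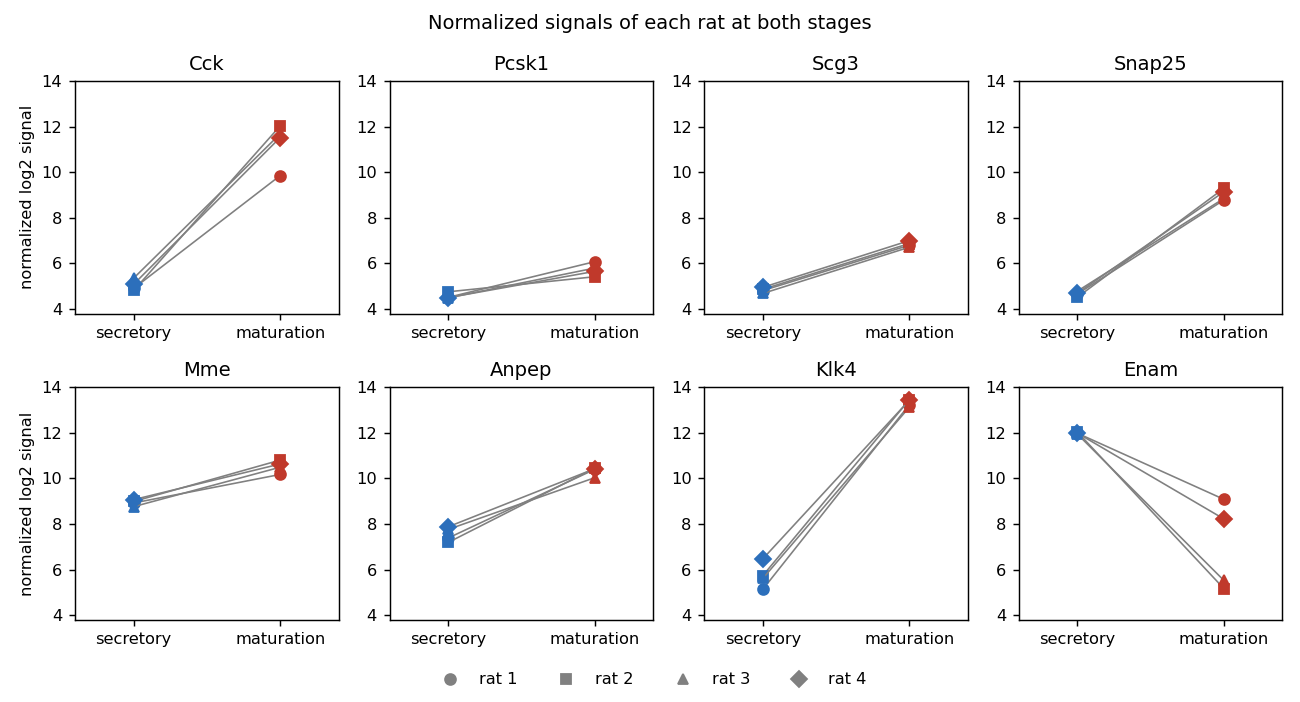
Normalized log2 signal of Cck, of Pcsk1, Scg3, Snap25, Mme and Anpep, which process, release or break down peptides, and of the stage markers Klk4 and Enam, with a line joining the secretory-stage and maturation-stage sample of each of the 4 rats. Cck is higher in the maturation stage in every rat. The lowest maturation-stage Cck (9.85) and the highest maturation-stage Enam (9.08) are both those of rat 1 (circles). Rat 4 (diamonds) has the second highest maturation-stage Enam (8.22), with Cck (11.52) like that of rats 2 and 3.

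The genes around Cck were then compared between the stages in 6 lists that follow the peptide from its processing to the response of a receiving cell. Of the 77 listed genes 74 had a probe, of which 14 were called higher and 3 lower in the maturation stage. The shares over all genes were 4.71% and 3.26%, and among genes detected on at least 4 arrays, as 59 of the listed genes were, they were 9.25% and 6.38%. The median log2 change of the 74 genes was 0.0747, against -0.0125 for all genes. The larger offset of 50, which damps the folds of dim probes, left 10 called higher, without Pcsk1, Plcb3, Itpr2 and Ryr3, and the count of 14 ranged from 9 with no background correction to 21 with median scaling and 23 with no normalization between arrays.

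**Figure D3:**
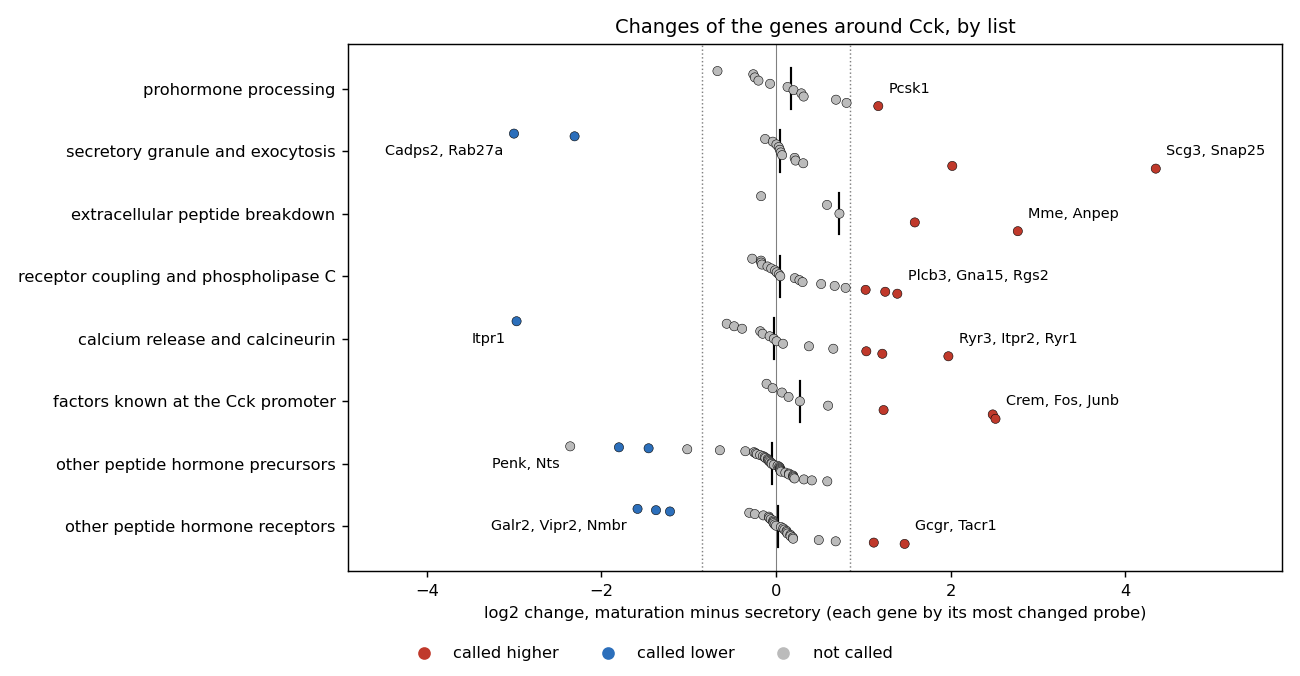
Log2 change between the stages (maturation minus secretory, horizontal axis) of each gene with a probe in the 6 lists around Cck and in the lists of other peptide precursors and receptors. Red points were called higher, blue points lower and grey points not called, with the called genes named from left to right, black bars at the list medians and dotted lines at 1.8-fold; Snap25, at 4.35, is the rightmost called gene, and Cadps2, which fell from 8.17 to 5.17, the leftmost.

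Of the 12 genes for prohormone processing with a probe, 1 was called higher and 0 lower by limma, against 4.71% and 3.26% of all genes. At an unadjusted p below 0.05 limma had 1 gene lower (the test of the methods also called 0 lower). Pcsk1, prohormone convertase 1, which cuts precursors such as that of cholecystokinin, was undetected in the secretory stage at 100.4 to 110.2 intensity units and detected on all 4 maturation-stage arrays at 142.7 to 183.4. Its normalized log2 signal rose from 4.57 ± 0.128 to 5.74 ± 0.276 (SD, n = 4), by 1.17 (limma, adjusted p = 1.14e-04). Measured from the dimmest detected signals, where undetected probes allow only a bound, the rise was at least 1.62-fold, short of the 1.8 needed for a call.

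None of the other processing enzymes was called. Pcsk2, prohormone convertase 2, was undetected on all arrays. Cpe, the carboxypeptidase that trims the cut peptides, differed by -0.26 and was not called. Pam, the enzyme that amidates peptide ends, differed by 0.69 on the log2 scale (limma, adjusted p = 7.85e-04), below the fold threshold.

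The tyrosine sulfotransferases differed in opposite directions. Tpst2 was 0.81 higher in the maturation stage (limma, adjusted p = 6.79e-06) and Tpst1 was 0.67 lower (a change of -0.67, adjusted p = 0.0118), both short of 1.8-fold. Ctsl, cathepsin L, a lysosomal protease that also cuts the cholecystokinin precursor, had a difference of 0.32 (limma, adjusted p = 0.00259) and was not called either.

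Among 14 genes of secretory granules and exocytosis, 2 were called higher and 2 lower, against 4.71% and 3.26% of all genes. Snap25, a protein of the complex that fuses vesicles with the cell membrane, had deposited signals of 102.4 to 111.5 in the secretory stage, where it was undetected on all arrays, and of 573.6 to 843.2 in the maturation stage. It rose by 4.35 on the log2 scale (limma, adjusted p = 2.84e-08), at least 15.7-fold when counted from the detection limit in the main processing. The log2 rise was 3.22 with an offset of 50 and 2.45 with no background correction. Scg3, a granule protein that helps to sort peptide hormones, was undetected in the secretory stage and rose by 2.02 (adjusted p = 1.97e-07), at least 3.50-fold in the main processing. Its rise was 1.26 with an offset of 50 and 0.82, short of 1.8-fold, with no background correction.

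The 2 genes that fell serve the handling of secretory vesicles. Cadps2, which primes dense-core vesicles for release, fell from a log2 signal of 8.17 to 5.17 (limma, adjusted p = 5.26e-07). Rab27a, a small GTPase that tethers granules to the cell membrane, changed by -2.31 (adjusted p = 3.55e-08). The classical granins Chga, Chgb and Scg2 and the fusion protein Stx1a were undetected on all arrays, and Rab3d, a granule GTPase, differed by 0.04 and was not called. The genes of this list thus did not move in one direction.

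The peptidases that break down peptides outside the cell included 2 of 5 genes called higher and 0 lower, against 4.71% and 3.26% of all genes. In limma 0 were lower even at an unadjusted p below 0.05. Mme, neprilysin, a membrane protease that degrades cholecystokinin among other peptides, rose from 8.94 ± 0.130 to 10.53 ± 0.267 (SD, n = 4), by 1.59 (limma, adjusted p = 1.38e-05). Anpep, aminopeptidase N, rose from 7.56 ± 0.320 to 10.33 ± 0.198, by 2.77 (adjusted p = 1.50e-06). Tpp2, a tripeptidyl peptidase known to inactivate cholecystokinin octapeptide, differed by -0.17 and was not called. Enpep, aminopeptidase A, and Ace, angiotensin-converting enzyme, differed by 0.58 and 0.73 and were below the fold threshold.

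In the list for receptor coupling and phospholipase C, 3 of 19 genes were called higher and 0 lower, against 4.71% and 3.26% of all genes. At an unadjusted p below 0.05 limma also had 0 lower. Gna15, a G protein subunit of the Gq family, rose by 1.25 (limma, adjusted p = 2.14e-05), Rgs2, which switches off Gq proteins, by 1.39 (adjusted p = 6.55e-06), and Plcb3, a phospholipase C, by 1.03 (adjusted p = 7.08e-04). Plcb3 was detected on 1 secretory-stage array. The more widely expressed Gq subunits Gnaq and Gna11 differed by -0.27 and -0.10 and were not called.

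Calcium release and calcineurin signaling, with 15 genes, had 3 called higher and 1 lower, against 4.71% and 3.26% of all genes. The inositol trisphosphate receptors, the channels through which Gq signaling releases calcium, went different ways. Itpr1 fell from 13.41 to 10.44, a log2 change of -2.97 (limma, adjusted p = 7.20e-08). Itpr2, undetected in the secretory stage, rose by 1.22 (adjusted p = 1.42e-04), at least 1.85-fold in the main processing. Its rise was 0.66 with an offset of 50 and 0.43 with no background correction, both short of 1.8-fold. Itpr3 was variable between rats and was not called, at 0.66 (adjusted p = 0.304).

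The ryanodine receptors, calcium channels best known from muscle, were each read by several probes, most of them not above background. Ryr1 rose by 1.97 with 1 of 3 probes (limma, adjusted p = 3.80e-05) and Ryr3 by 1.03 with 1 of 3 (adjusted p = 0.00378), while the remaining probes of both were undetected or, for 1 probe of Ryr3, detected on 1 array per stage. The 4 probes of Ryr2 were each detected on at most 2 of 8 arrays, so no change could be read from them. Nfatc4, a transcription factor activated by calcineurin, differed by -0.39 (adjusted p = 0.0547).

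Of 9 transcription factors known at the Cck promoter, 3 were called higher and 0 lower in limma, against 4.71% and 3.26% of all genes. Among genes detected on at least 4 arrays, as 8 of the 9 were, 9.25% were called higher. A list this short would hold few calls at such shares. At an unadjusted p below 0.05 limma also had 0 lower. Fos, a subunit of AP-1, was undetected in the secretory stage at 106.9 to 111.1 intensity units and reached 242.1 to 291.5 in the maturation stage. It rose by 2.48 (limma, adjusted p = 1.39e-07), at least 4.52-fold in the main processing, by 1.59 with an offset of 50 and by 1.08 with no background correction. Junb, the partner of Fos, rose from 263.4 to 347.2 units in the secretory stage to 1561 to 2118, by 2.51 after normalization (adjusted p = 1.64e-07). Crem, a factor of the cAMP response, was called with all 3 of its probes, the most changed by 1.23 (adjusted p = 4.74e-05). Creb1 and Jun were not called, with differences of -0.11 and 0.27. Binding of these factors was not measured.

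Other peptide hormones were examined beside Cck. Of 37 other precursors 0 were called higher and 2 lower in the maturation stage, and 17 were undetected on all arrays, among them Gast, which encodes gastrin, the closest relative of cholecystokinin. The shares over all genes were 4.71% higher, 3.26% lower and 39.2% undetected, so these counts lie near the background, and the median log2 change of the 37 was -0.0496. At an unadjusted p below 0.05 limma gave 5 higher and 7 lower, while the test of the methods called 0 and 2. Penk, the enkephalin precursor, had deposited signals of 3507 to 5572 in the secretory stage and of 1489 to 2280 in the maturation stage and fell from a mean log2 signal of 12.30 to 10.50 (limma, adjusted p = 1.07e-05). Nts, the neurotensin precursor, fell from 2920 to 3461 units to 1365 to 2032, by 1.46 (adjusted p = 1.54e-05). Pthlh, the parathyroid hormone-like peptide, differed by 0.32 and was not called.

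The somatostatin precursor Sst and neuropeptide Y (Npy), both chosen after their values were seen, varied strongly between rats. Sst had normalized log2 signals of 9.43 and 8.78 in secretory 1 and 4 but of 4.74 and 4.71 in secretory 2 and 3, and it was not called (limma, adjusted p = 0.140). Npy averaged 8.98 ± 1.21 in the secretory stage and 7.96 ± 1.06 in the maturation stage (SD, n = 4), with an adjusted p of 0.335. Cck, as the gene chosen for its difference, was not tested against the other precursors.

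**Figure D4:**
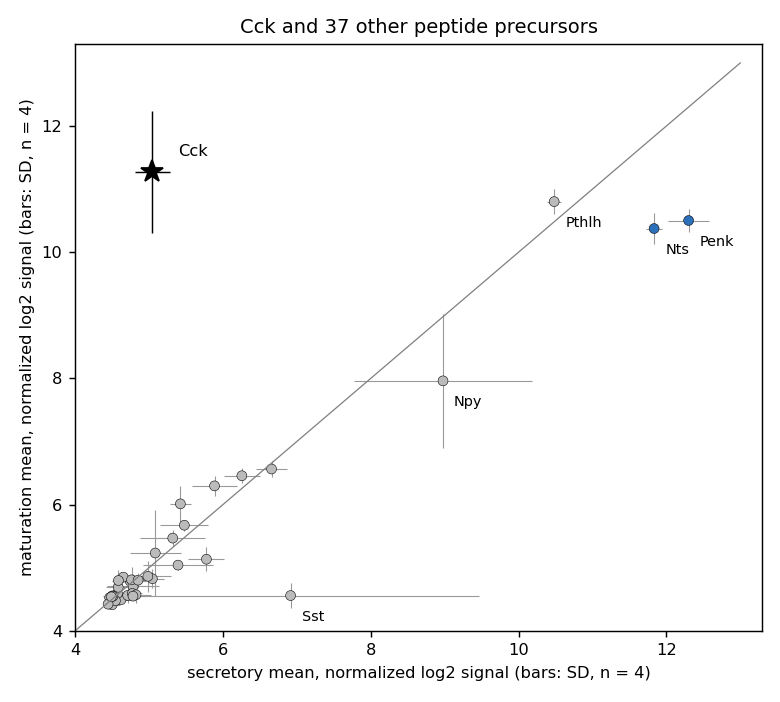
Maturation-stage mean (vertical axis) against secretory-stage mean (horizontal axis) of the normalized log2 signal of Cck (star) and of 37 other peptide hormone precursors, with SD bars over 4 arrays and a line where both stages are equal. Blue points were called lower and grey points were not called; Cck lies 6.23 log2 units above the line, Penk (12.30 and 10.50) and Nts (11.83 and 10.38) lie below it, and distances from the line, not levels of different probes, can be compared.

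Of the receptors of other peptide hormones, 15 of 28 with a probe were undetected on all arrays, as were 39.2% of all genes, and 2 were called higher and 3 lower, against 4.71% and 3.26% of all genes. Their median log2 change was 0.028. These 5 calls became 2 with no background correction or with an offset of 50, and 3 with undetected genes at their lower bounds. Tacr1, the receptor of substance P, was undetected in the secretory stage and rose by 1.47 (limma, adjusted p = 1.49e-06), at least 1.98-fold in the main processing. Its rise was 0.79 with an offset of 50 and 0.55 with no background correction, both short of 1.8-fold. Gcgr, the glucagon receptor, was called with 2 of 3 probes. The most changed probe, undetected in the secretory stage, rose by 1.12 (limma, adjusted p = 8.33e-05), at least 1.73-fold and so short of 1.8, another, detected on 2 secretory-stage arrays, rose by 1.10 (2.14-fold), and the last differed by -0.01. Pth1r, the receptor of parathyroid hormone and its related peptide, differed by 0.49 and was not called. Galr2, a galanin receptor, changed by -1.59 (adjusted p = 2.84e-06) and Vipr2, a receptor of vasoactive intestinal peptide, by -1.37 (adjusted p = 2.30e-05). Nmbr, the neuromedin B receptor, named to complete the count after its values were seen, changed by -1.21 (adjusted p = 2.39e-05), at least 1.68-fold lower because it was undetected in the maturation stage, which is also short of 1.8.

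The probes whose normalized log2 signals followed Cck most closely over the 8 arrays were those of Pmm1 (Pearson r = 0.998), a phosphomannomutase, Amacr (0.998), a racemase of branched fatty acid breakdown, Ifngr2 (0.998), a subunit of the interferon gamma receptor, Flot2 (0.998), a membrane raft protein, and Ap2s1 (0.998), a subunit of the clathrin adaptor. The arrays fall into 2 stages, so any gene that separates them correlates highly: of 10146 other probes detected on all maturation-stage arrays, 1011 had an r above 0.95 and 94 above 0.99. Their differences between the stages were far smaller than that of Cck, at 0.88 for Pmm1, 1.47 for Amacr, 0.62 for Ifngr2, 1.16 for Flot2 and 0.54 for Ap2s1, of which those of Ifngr2 and Ap2s1 missed the fold threshold. Ifngr2 was called with median scaling, at 0.97, while the call of Pmm1 was lost with no background correction (0.79) and with an offset of 50 (0.84) and that of Flot2 with no background correction (0.73).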

How the data were processed

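Each array was placed in its stage, and numbered, by the title of its sample. The source label of maturation 2 to 4 names the secretory stage, against the titles, and all 8 arrays correlated more with their titled stage. The authors deposited for each probe the mean brightness of its beads, an intensity that was not background-corrected or normalized, a detection p-value, the standard error of the bead signal and the bead number. The software that summarised the beads is not given in the sources used here. Signals summed to between 11881691 and 12046793 per secretory-stage array and 13355073 and 16122665 per maturation-stage array, and 10667 to 11450 probes were detected. The number of arrays limits the precision.

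The signals were background-corrected by neqc of limma 3.58.1 (R 4.3.3), which infers the negative controls from the deposited detection p-values, then given an offset of 16, quantile-normalized and turned into log2 values. All 22523 probes were fitted with lmFit and eBayes, unpaired, with Benjamini-Hochberg adjustment. The study's methods name a two-sided Student test without stating pairing. A probe counted as undetected in a stage when none of the 4 arrays gave a detection p below 0.05. Lower bounds replace the dim stage by the higher of the dimmest detected value and the probe's own. They hold for this processing, and other background treatments can give smaller folds. Current symbols came from a RefSeq gene table by gene ID for 17430 probes.

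The replicate number names the rat, which gave both stages. Over 11233 detected probes, deviations from the stage means correlated at 0.195, 0.129, 0.219 and 0.234 within rats. With the other rats the mean correlations were -0.0712, -0.0426, -0.0609 and -0.0833.

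Members and lists were chosen with earlier results of these data known, so the counts of called genes are not independent evidence. Genes named were the members, the called genes of each list (at most 2 rises and 2 falls where over 4 were called), the gene of each list with the highest maturation mean, the stage markers Amelx, Enam and Klk4 and the 5 probes most correlated with Cck. Other list genes were named after their values were seen. The scripts were tested on simulated data. Alternatives were other background corrections, offsets and normalizations, a detection filter, a paired fit with the rat as a block, the methods' Student test, an adjusted p below 0.01, and leaving out single arrays. No normalization between arrays, lower bounds for undetected genes and the brightest probe of a gene were added after seeing the data.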

Additional observations from a re-analysis of the deposited data

Results flagged for a closer look

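Anpep, aminopeptidase N, had 1 maturation-stage sample that stood apart: maturation 3 had a normalized log2 signal of 10.03, against 10.40 to 10.45 in the other maturation-stage samples, and all 4 were above the secretory stage. By Dixon's test this was 1 of 67 sets of 4 values examined, of which 3.35 would be expected to stand out by chance. Its cause was not tested.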

How the results depend on the processing

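The Cck difference was 6.23 on the log2 scale and stayed above 4 under every alternative: it was 4.39 with no background correction, 5.23 with an offset of 50, and 5.96 to 6.68 with 1 array left out. The differences of Cckar (-0.18 to 0.02) and Cckbr (-0.04 to 0.16) had no settled sign, and the detection filter removed both. The 14 genes around Cck called higher became 9 with no background correction, 21 with median scaling and 23 with no normalization between arrays, which moved the median of all probes to 0.127, and were 14 to 16 with 1 array left out; 3 were lower throughout. The 5 other receptors called became 2 with no background correction, 2 with an offset of 50 and 3 with undetected genes at their lower bounds. The 2 other precursors called were 2 to 3 under all alternatives. With the rat as a block (the replicate pairing), the counts were 14, 3, 2 and 5, and no call changed. Of 36 named genes, 23 kept their side of the thresholds under the 18 alternatives run for single genes (not the lower bounds or the brightest probe), no called gene changed direction, and the uncalled differences of Rab3d and Nfatc4 changed sign under some. The calls of Plcb3 and Ryr3 were lost with normexp without negative controls, no background correction and an offset of 50, through the fold, as were those of Pcsk1, Itpr2, Tacr1, Gcgr and Pmm1 with an offset of 50. Without background correction Pcsk1, Scg3, Itpr2, the most changed Crem probe, Tacr1, Gcgr, Pmm1 and Flot2 also fell below 1.8-fold, and Vipr2 did so without normalization between arrays. At their lower bounds Pcsk1 (1.62-fold), the most changed Gcgr probe (1.73-fold; another, detected in both stages, gave 2.14-fold) and Nmbr (1.68-fold) were short of 1.8. Calls were gained for Ifngr2 with median scaling (0.97) and without normalization between arrays (1.17), and for Pth1r without normalization between arrays (1.03). The cause of these changes was not tested.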
